A study of Mus musculus with 37 samples.

Results

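The subject is a group of 8 receptor genes through which nerves, circulating catecholamines and extracellular nucleotides act on the wall of the urinary tract: the muscarinic acetylcholine receptors Chrm2 and Chrm3, the purinergic receptors P2rx1, P2rx4 and P2ry2, the alpha-1 adrenergic receptors Adra1a and Adra1d, and the tachykinin receptor Tacr2. They were chosen by symbol, and all 8 were found among the 24421 genes of the count table. Whole transcriptome sequencing (WTS) had been made from 37 tissue samples of wild-type female BALB/c mice. The carcinogen BBN, a butyl-hydroxybutyl nitrosamine that causes urothelial cancer in rodents, was given for 18 weeks to 10 mice, and 3 mice went without it. The groups were UT, the ureter on the cancer side in mice given BBN (11 libraries of 10 mice, with both ureters of mouse 5), UN, the ureter on their non-cancer side (7 libraries), U, the ureters of untreated mice (6 libraries, both ureters of 3 mice), BB, the bladders of BBN-treated mice (10 libraries), and UB, the bladders of the same 3 untreated mice (3 libraries). By the study's methods, BBN was begun at a young adult age and tap water was given to the untreated mice. The study was made to describe upper tract cancer in these mice, and the receptors are followed here across its groups.

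Urinary tract smooth muscle contracts when acetylcholine acts on muscarinic M3 receptors, which raise calcium through Gq, while the M2 receptor couples to Gi and opposes relaxation. In the rodent bladder, parasympathetic nerves also release ATP, which opens the P2X1 channel on detrusor muscle. Ureteral peristalsis is paced within the ureter wall itself, and noradrenaline acting on alpha-1 receptors contracts the ureter, which is why alpha-1 blockers are given for ureteral stones. P2X4 is an ATP-gated channel of immune cells and epithelia, P2Y2 is a Gq-coupled receptor for ATP and UTP found on epithelia, and the NK2 receptor encoded by Tacr2 responds to neurokinin A.

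On the GRCm38 annotation, Chrm2 lies on chromosome 6 (36388084 to 36528414), Chrm3 on chromosome 13 (9875486 to 10360847), P2rx1 on chromosome 11 (72999103 to 73015200) and P2rx4 on chromosome 5 (122707544 to 122729738). P2ry2 lies on chromosome 7 (100996568 to 101012866), Adra1a on chromosome 14 (66635251 to 66771168), Adra1d on chromosome 2 (131545850 to 131562283) and Tacr2 on chromosome 10 (62252438 to 62265990). Promoter sequences from RefSeq (GRCm38.p6, 250 bases before to 50 bases after a transcript start) were at hand for 6 of the 8 genes, Adra1a and Adra1d having none. Those of P2rx1 and P2ry2 are shown because these 2 purinergic receptors took opposite directions in the cancer side ureters. Capitals mark CG dinucleotides.
P2rx1, chr11:72998895-72999194, plus strand: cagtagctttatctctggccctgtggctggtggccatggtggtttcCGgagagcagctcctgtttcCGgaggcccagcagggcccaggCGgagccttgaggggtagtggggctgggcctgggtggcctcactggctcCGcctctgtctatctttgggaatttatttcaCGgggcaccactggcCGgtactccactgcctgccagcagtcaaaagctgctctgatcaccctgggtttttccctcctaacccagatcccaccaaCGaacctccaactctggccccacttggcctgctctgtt
P2ry2, chr7:101012004-101012303, minus strand: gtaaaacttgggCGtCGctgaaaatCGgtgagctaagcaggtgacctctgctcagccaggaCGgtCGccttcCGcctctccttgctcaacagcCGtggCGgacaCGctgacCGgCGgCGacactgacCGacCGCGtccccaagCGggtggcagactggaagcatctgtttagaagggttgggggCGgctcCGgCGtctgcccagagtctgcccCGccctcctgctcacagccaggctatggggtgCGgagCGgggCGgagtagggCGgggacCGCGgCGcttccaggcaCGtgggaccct
The P2ry2 window held 28 CG dinucleotides, a number reached by 14.2% of the 32851 promoters in the table. The P2rx1 window held 7, which was also the median over all promoters. The CArG box, the element bound by serum response factor in many smooth muscle genes, was searched on both strands and was found in 0 of the 7 promoter windows of these genes (P2ry2 has 2) and in 1.63% of all promoters.

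Levels are given as CPM, the deposited estimated count of a gene scaled to the total of its library. Library totals ran from 3557697 counts (BB 3) to 18793560 counts. In the shallowest library 3 counts amount to 0.843 CPM, so a level under that could not be told from 0 there, and totals limit counting precision only. In the study's sequencing table, 3 BBN bladders (BB 1, BB 3 and BB 4), UN 6 and the right ureter of untreated mouse 1 have an RNA integrity number (RIN) under 5. The bladder of mouse 6 carries a T in its library name, and UT 9 is absent from the clustering of the study. All 37 libraries were used, and values without these libraries are given where they change a result described here. Marker levels also set libraries apart. The 7 adipocyte markers summed to between 18689 and 28558 CPM in U and to between 399 and 1229 CPM in UB. UN 2 had 44.4 CPM of the 14 urothelial markers and 25598 CPM of the adipocyte markers, and UT 4 had 2491 CPM of the 8 kidney tubule markers, against at most 26.8 CPM in any other ureter library. In such bulk samples, fewer cells of a type and less RNA per cell cannot be told apart.

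Per kilobase of merged exon, the scale on which genes can be set against each other, untreated bladder and untreated ureter had a different order of receptors. In UB, P2rx1 was first by far at 105.6 ± 17.9 CPM per kb (SD, n = 3). P2ry2 (6.72 ± 0.53) and P2rx4 (6.15 ± 0.45) followed, with overlapping ranges. Chrm2 (2.37 ± 1.20) and Chrm3 (1.08 ± 0.33) came next, their ranges also overlapping, and then Tacr2 at 0.398 ± 0.282, Adra1d at 0.120 ± 0.127 and Adra1a at 0.0357 ± 0.0201 CPM per kb. In U, P2rx4 was first at 7.33 ± 0.39 CPM per kb (SD, n = 6), ahead of P2rx1 at 5.64 ± 1.35, though the highest P2rx1 library reached the range of P2rx4. Adra1a (1.59 ± 0.62), P2ry2 (1.46 ± 0.37) and Adra1d (0.985 ± 0.273) followed, each overlapping the others in range. Chrm3 (0.0617 ± 0.0287), Chrm2 (0.0288 ± 0.0249) and Tacr2 (0.0108 ± 0.0168 CPM per kb) were last.

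**Figure D1:**
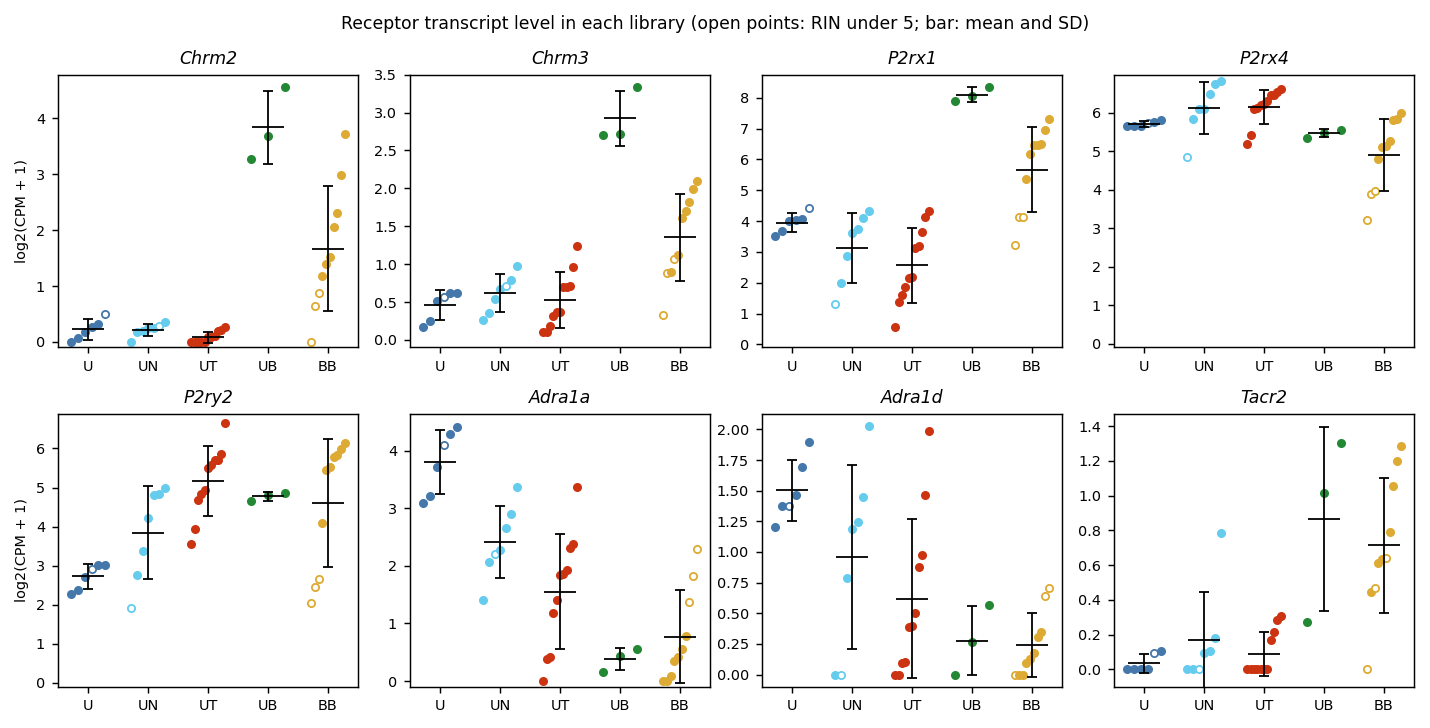
Level of each receptor in every library, as log2(CPM + 1) on the vertical axis, by group (U, untreated ureter; UN and UT, non-cancer and cancer side ureter of BBN-treated mice; UB, untreated bladder; BB, BBN bladder), with the mean and SD as bars and open points for libraries of RIN under 5. The 3 UB libraries lie above all 6 U libraries for Chrm2, Chrm3, P2rx1, P2ry2 and Tacr2, and below all 6 for P2rx4, Adra1a and Adra1d. Between these organs, 9580 of the 15318 genes tested had an unadjusted p under 0.05 in edgeR. How many of all genes separate in this way was not counted.

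Untreated ureter was first set against untreated bladder, organs taken from the same 3 mice, which asks how the receptor sets of the healthy tissues differ. The bladder had Chrm2, Chrm3, P2rx1 and P2ry2 at higher levels, and the ureter Adra1a and Adra1d. Of the 7 members that passed the filter on low counts, 2 were called higher in U, where 15.7% of all 15318 genes tested were called higher, and 4 were called lower, where 14.3% of all genes were. A call meant a Benjamini-Hochberg adjusted p under 0.1 over all genes in edgeR's quasi-likelihood test and a fold change of at least 2. A member that passes the filter through only 1 of the groups has to differ, so these counts describe the 7 members only. The median log2 fold change of the 7 was -1.82, beside -0.02 over all genes.

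Chrm2, the M2 receptor, had 22.5, 8.72 and 11.9 CPM in the bladders of untreated mice 1, 2 and 3. In the 6 ureters it had between 0 and 0.417 CPM (median 0.160), that is, at most 6 counts. The groups did not overlap, and the log2 fold change was -5.94 (SE 0.46, adjusted p = 4.17e-07). Chrm3, the M3 receptor that drives detrusor contraction, had 9.13, 5.53 and 5.597 CPM in UB, against 0.130 to 0.539 CPM (median 0.460) in U. It was again lower in every ureter, with a log2 fold change of -3.73 (SE 0.33, adjusted p = 1.2e-06).

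P2rx1, the ATP-gated channel of the neurogenic bladder contraction, had 267, 328 and 236 CPM in UB. In U it had 10.5 to 20.5 CPM (median 15.2), so that its fold difference was smaller than that of Chrm2 but its absolute one far larger (log2 fold change -3.85, SE 0.18, adjusted p = 1.88e-08). P2ry2 had 27.2, 27.9 and 24.01 CPM in UB, against 3.84 to 7.16 CPM (median 6.06) in U (log2 fold change -1.82, SE 0.19, adjusted p = 6.24e-06). P2rx4 stood the other way. It had 43.8, 46.0 and 39.8 CPM in UB and 49.1 to 55.5 CPM (median 50.9) in U, and the groups did not overlap, but the difference was under 2-fold (log2 0.64, SE 0.10, adjusted p = 0.000198).

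Adra1a, the alpha-1A receptor, had 0.348, 0.466 and 0.120 CPM in UB, or 5, 7 and 2 counts, and 7.55 to 20.4 CPM (median 14.2) in U. All 6 ureters were higher, with a log2 fold change of 5.84 (SE 0.51, adjusted p = 1.13e-06). Adra1d, the alpha-1D receptor, had 0, 0.1998 and 0.481 CPM in UB and 1.31 to 2.73 CPM (median 1.68) in U, again without overlap (log2 fold change 3.33, SE 0.56, adjusted p = 0.000291). The third alpha-1 receptor, Adra1b, which is not among the 8, had 1.30 ± 0.40 CPM in U (SD, n = 6) and 0.936 ± 0.456 CPM in UB (SD, n = 3), with overlapping ranges, and was not called (0.87). Tacr2 did not pass the filter. It had 3, 22 and 17 counts in the 3 bladders and 0 or 1 count in the ureters, and without the filter its log2 fold change was -4.61 (adjusted p = 0.000568).

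The mouse as a block changed no call among these receptors. Tissue composition differed between the organs beside them. The 10 smooth muscle markers summed to between 2250 and 4109 CPM in U and to between 10189 and 12179 CPM in UB. With libraries scaled to these markers, which shifts the median of all genes to 1.54, Chrm2 (-4.43), Chrm3 (-2.19) and P2rx1 (-2.30) stayed lower in U and Adra1a (7.42) and Adra1d (4.87) higher, while the P2ry2 call was lost (-0.27, adjusted p = 0.258) and P2rx4 was called higher (2.21). All 14 urothelial markers were called lower in U (median -2.35) and all 7 adipocyte markers higher (median 6.58). Also higher in U were 3 of 4 endothelial markers (median 1.60), 3 of 5 neutrophil markers (2.101), 2 of 3 pericyte markers (the other was lower) and 3 of 6 T cell markers (5 without UB 3), and 2 of 3 skeletal muscle markers tested were lower (-4.79), or 4 of the 5 listed without UB 3. The part of any of these in the receptor differences was not tested.

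**Figure D2:**
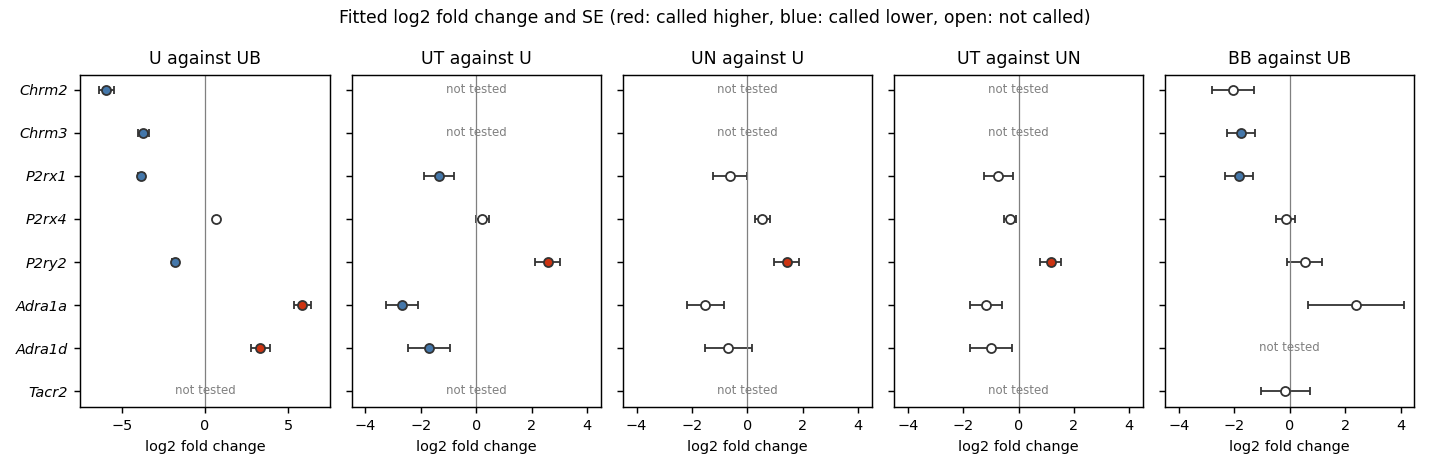
Fitted log2 fold change with its SE (horizontal axis) for each of the 8 receptors in 5 comparisons, red for called higher, blue for called lower and open for not called. Untreated ureter against untreated bladder spans the widest range, from -5.94 for Chrm2 to 5.84 for Adra1a, and P2ry2 is the member called higher in all 3 ureter comparisons.

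In the ureter, BBN was followed through UN and UT, each against the same U libraries. P2ry2 was higher on the cancer side and on the non-cancer side, and on the cancer side Adra1a, Adra1d and P2rx1 were lower. The 3 ureter groups were fitted together, and 5 of the 8 members passed the filter, Chrm2, Chrm3 and Tacr2 being too low. Of the 5, 1 was called higher and 3 lower in UT against U, where 18.7% and 12.3% of the 15658 genes tested were called. In UN against U, 1 was called higher and 0 lower, beside 12.5% and 1.21% of all genes. In UT against UN, 1 was called higher and 0 lower, beside 1.32% and 4.2% of all genes. The median log2 fold change of the 5 was -1.35 in UT against U, -0.62 in UN against U and -0.73 in UT against UN, beside 0.11, 0.13 and -0.02 over all genes.

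P2ry2, the ATP and UTP receptor, had 3.84 to 7.16 CPM in U (median 6.06). It had 2.78 to 30.8 CPM in UN (median 17.7) and 10.8 to 99.4 CPM in UT (median 43.9). All 11 UT libraries lay above the highest U library, as did 5 of 7 UN libraries. The log2 fold change was 2.58 in UT against U (SE 0.44, adjusted p = 0.000161) and 1.42 in UN against U (SE 0.45, adjusted p = 0.0371). Summing the ureters of each mouse into 1 library kept the call in UT (adjusted p = 0.0167) and ended it in UN (adjusted p = 0.271), as did a random term for the mouse (adjusted p = 0.131).

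Between the sides, P2ry2 was 1.16 higher in UT on the log2 scale (SE 0.39, adjusted p = 0.0900), with 6 of 11 UT libraries above the highest UN library. Of the 7 mice that gave both sides, 6 had more P2ry2 in UT, by between 0.55 and 3.89 log2 units, and lower by 1.44 in mouse 7. This call was near the threshold and ended with the mouse as a block (0.99, adjusted p = 0.728), with RIN as a covariate (0.62, adjusted p = 0.785), with U left out of the fit (adjusted p = 0.205), and without any of several single libraries (UT 2, 3, 4, 5R, 5L or 10, UN 2, 4, 6 or 9), the largest adjusted p among these being 0.221, without UN 6. Urothelial markers varied beside P2ry2 within UN. The 3 UN libraries lowest in P2ry2, UN 6 (2.78 CPM), UN 2 (5.76) and UN 9 (9.43), were also the 3 lowest in summed urothelial markers, with 1647, 44.4 and 1982 CPM, where the other UN libraries had at least 6102 CPM. In U, those markers summed to between 2020 and 4062 CPM, and in UT to between 1442 and 11160 CPM. UN 6, UN 2 and UN 9 also had the 3 highest adipocyte sums of UN, 14083, 25598 and 17884 CPM, the next being 11686 CPM. The adipocyte sums of U were 18689 to 28558 CPM. Over the 24 ureter libraries, Pearson's r of P2ry2 on the log2 scale was 0.385 with the urothelial and -0.804 with the adipocyte marker mean. Against U, other markers rose in BBN-treated ureters. All 4 squamous keratins were called higher in UT (median 7.41) and in UN (6.51), summing to 153 to 6525 CPM in UT, 7.92 to 3429 CPM in UN and 7.05 to 12.1 CPM in U. All 5 neutrophil markers tested were called higher in both (3 in UN without UN 6), and of 6 T cell markers 5 in UT and 0 in UN in edgeR, where 2 had an unadjusted p under 0.05 (2 were called without UN 2 or UN 4). With the ureters of a mouse summed, 4 keratins, 4 neutrophil markers and 0 T cell markers were called in UT, and 1, 0 and 0 in UN. The part of urothelial, squamous, immune or fat content in the P2ry2, Adra1a, Adra1d and P2rx1 differences was not tested.

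Adra1a had 7.55 to 20.4 CPM in U (median 14.2), 1.67 to 9.39 CPM in UN (median 3.83) and 0 to 9.31 CPM in UT (median 2.59). In UT, 10 of 11 libraries lay below the lowest U library, and in UN 6 of 7. The log2 fold change was -2.69 in UT against U (SE 0.58, adjusted p = 0.000966). In UN against U it was -1.52 (SE 0.66, adjusted p = 0.128), and in UT against UN -1.17 (SE 0.57, adjusted p = 0.198), neither called. Within mice, Adra1a was lower in UT than in UN in 6 of 7. With U and UN alone in the fit, the UN difference was called (-1.55, adjusted p = 0.0231), as it was in DESeq2 (adjusted p = 0.0739) and in a model with a random term for the mouse (adjusted p = 0.0838), but not with the ureters of a mouse summed (adjusted p = 0.375).

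Adra1d had 1.31 to 2.73 CPM in U (median 1.68), 0 to 3.07 CPM in UN (median 1.28) and 0 to 2.96 CPM in UT (median 0.318). It had 0 counts in 2 UN and 2 UT libraries, and 9 of 11 UT libraries lay below the lowest U library. The call in UT against U (-1.69, SE 0.76, adjusted p = 0.0734) ended without UT 5R, U 2R, U 2L or U 3L (-1.55 to -1.69, adjusted p up to 0.140). It also ended without the filter on low counts (-1.69, adjusted p = 0.111), with RIN as a covariate (-1.63, adjusted p = 0.104) and with the ureters of a mouse summed (-1.59, adjusted p = 0.260). Adipocyte and smooth muscle markers moved with Adra1a and Adra1d. The adipocyte markers summed to between 4147 and 25598 CPM in UN and between 35.5 and 15504 CPM in UT, and all 7 were called lower in UT against U, but 0 with the ureters of a mouse summed. UT 2, with 0 counts of Adra1a, had the lowest adipocyte sum. UT 4, with the next lowest (85.6 CPM), had 4.21 CPM of Adra1a, more than UT 7 (2.81 CPM), whose adipocyte sum was 10136 CPM. Scaled to the smooth muscle markers, which shifts the median of all genes to 2.69 in UT against U, Adra1a was no longer called (-0.54, adjusted p = 0.448) and Adra1d turned (0.12, adjusted p = 0.882). The part of fat or muscle content was not tested.

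P2rx1 had 10.5 to 20.5 CPM in U (median 15.2), 1.497 to 19.2 CPM in UN (median 11.2) and 0.463 to 19.0 CPM in UT (median 3.599). It was lower in UT than in U (log2 fold change -1.35, SE 0.54, adjusted p = 0.0458), with 8 of 11 libraries below the lowest U library, but not with the ureters of a mouse summed (adjusted p = 0.213), and it turned when scaled to smooth muscle (0.58, adjusted p = 0.352). In UN against U it was -0.62 (adjusted p = 0.516) and in UT against UN -0.73 (adjusted p = 0.378), and within mice it was higher in UT in 4 of 7 and lower in 3. The smooth muscle markers summed to between 404 and 2833 CPM in UT, between 416 and 7816 CPM in UN and between 2250 and 4109 CPM in U. Of the 10 markers, 8 were called lower in UT against U, 7 in UT against UN (0 to 9 when 1 library was left out) and 0 in UN against U (2 without UN 1).

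P2rx4 had 49.1 to 55.5 CPM in U (median 50.9), 27.8 to 111.7 CPM in UN (median 67.9) and 35.8 to 97.5 CPM in UT (median 73.6), and was called in none of the ureter comparisons (log2 fold changes 0.23, 0.54 and -0.31, lowest adjusted p = 0.165). Scaled to smooth muscle, it was called higher in UT against U (2.58) and UN against U (1.94), beside medians of all genes of 2.69 and 1.38. Chrm2 stayed at or below 0.281 CPM and Chrm3 at or below 1.36 CPM in every BBN-treated ureter. Chrm2 had 0 counts in 5 of 11 UT libraries. At this depth no change of Chrm2, Chrm3 or Tacr2 could be seen in the ureter, their adjusted p without the filter on low counts being at least 0.107.

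**Figure D3:**
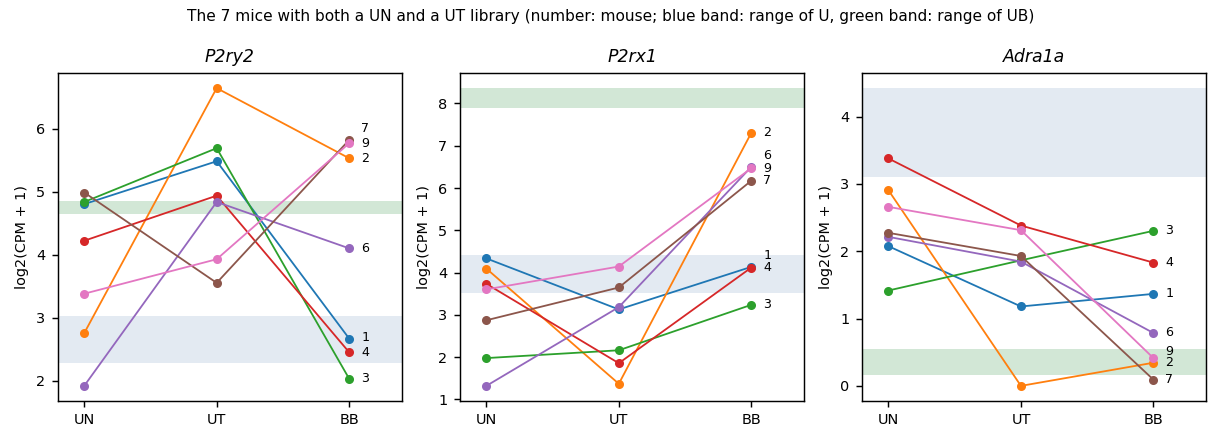
P2ry2, P2rx1 and Adra1a, as log2(CPM + 1) on the vertical axis, in the 7 mice with both a UN and a UT library, joined by a line per mouse to the bladder (BB) of the same mouse (numbers), with the range of untreated ureters as a blue band and of untreated bladders as a green one. P2ry2 rises from UN to UT in 6 of 7 lines and Adra1a falls in 6 of 7, while P2rx1 goes either way.

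In the bladder, BBN was compared with no BBN over 10 and 3 libraries. The detrusor receptors Chrm3 and P2rx1 were lower in BBN bladder. Of the 7 members that passed the filter, 0 were called higher and 2 lower, where 7.61% and 5.74% of the 18050 genes tested were called. Scaled to smooth muscle, which shifts the median of all genes to 1.67, it was 2 higher and 0 lower, P2ry2 (1.85, adjusted p = 0.0532) and P2rx4 (1.17, adjusted p = 0.0487). That scaling called 10607 of the 18050 genes higher and 162 lower. Without it, the median log2 fold change of the 7 was -0.16, beside 0.25 over all genes.

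P2rx1 had 267, 328 and 236 CPM in UB, and between 8.43 and 157 CPM in BB (median 79.2). Every BBN bladder was below every untreated one (log2 fold change -1.83, SE 0.50, adjusted p = 0.0323). The 3 lowest values, 8.43, 16.4 and 16.6 CPM, came from the 3 bladders of RIN under 5, and the other 7 had 39.9 to 157 CPM. Without those 3 the difference was -1.45 (adjusted p = 0.0117). Chrm3 had 9.13, 5.53 and 5.597 CPM in UB and 0.256 to 3.29 CPM in BB (median 1.62), also without overlap (log2 fold change -1.75, SE 0.51, adjusted p = 0.0415). Without the 3 bladders it was -1.57 (adjusted p = 0.0130). Leaving out any 1 of the 3 untreated bladders ended both calls, with adjusted p between 0.104 and 0.165 for P2rx1 and between 0.130 and 0.265 for Chrm3. The log2 fold changes were then -1.72 to -1.94 for P2rx1 and -1.49 to -1.90 for Chrm3.

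Chrm2 fell short of the threshold. It had 22.5, 8.72 and 11.9 CPM in UB and 0 to 12.2 CPM in BB (median 1.76), and 9 of 10 BBN bladders were below the lowest untreated one (log2 fold change -2.03, SE 0.76, adjusted p = 0.109). It was called without the bladders of RIN under 5 (-1.66, adjusted p = 0.0720), with RIN as a covariate (adjusted p = 0.0491) and in DESeq2 (adjusted p = 0.0465). Leaving out any 1 untreated bladder gave adjusted p of 0.208 to 0.338, and scaling to smooth muscle gave -0.87 (adjusted p = 0.389). Tacr2 differed by -0.16 (SE 0.88, adjusted p = 0.922), with 0 to 1.44 CPM in BB, where the median was 0.557 CPM, and 0.209 to 1.47 CPM in UB.

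P2ry2 was spread widely in BBN bladders, from 3.09 to 69.9 CPM (median 44.0), around the 27.2, 27.9 and 24.01 CPM of UB (log2 fold change 0.53, SE 0.63, adjusted p = 0.595). The 3 bladders of RIN under 5 had 3.09, 4.48 and 5.37 CPM, the bladder of mouse 6 had 16.2 CPM, and the other 6 had 42.6 to 69.9 CPM, all above UB. Without the 3 bladders the difference was 0.95, short of 2-fold (adjusted p = 0.0342), and without that of mouse 6 as well it was 1.05 and called (adjusted p = 0.00224). P2rx4 had 8.31 to 62.6 CPM in BB (median 33.9) against 43.8, 46.0 and 39.8 CPM in UB (log2 fold change -0.14, SE 0.35, adjusted p = 0.815), and again the 3 bladders of RIN under 5 were lowest, at 8.31, 13.9 and 14.6 CPM.

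Adra1a went the other way with RNA integrity. It had 3.94, 2.56 and 1.58 CPM in the 3 bladders of RIN under 5, which came from 14, 20 and 10 counts, and 0 to 0.724 CPM in the other 7, where UB had 0.348, 0.466 and 0.120 CPM. The difference was 2.397 (SE 1.73, adjusted p = 0.359), and without the 3 bladders Adra1a no longer passed the filter. With RIN as a covariate the difference was 0.083 (adjusted p = 0.971). Adra1d had at most 0.631 CPM in BB and did not pass the filter. BB 1 and BB 3 also had the highest adipocyte marker sums of the BBN bladders, 2655 and 971 CPM, while BB 4 had 103 CPM. The part of fat in these values was not tested, and RNA integrity entered only through the RIN covariate and the left-out bladders.

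Both smooth muscle and urothelial markers moved with the detrusor receptors in the bladder. The muscle markers summed to between 1117 and 8148 CPM in BB, against 10189 to 12179 CPM in UB. Over the 13 bladder libraries, which share the tissue and in part the treatment, Pearson's r between log2 levels of the receptor and of the marker mean was 0.986 for P2rx1, 0.871 for Chrm3, 0.803 for Chrm2, 0.781 for P2rx4 and -0.725 for Adra1a. For Adra1a, the 3 bladders of RIN under 5 had the highest levels (1.58 to 3.94 CPM) and the lowest muscle and urothelial marker means. All other bladders had at most 0.724 CPM of it. With the urothelial markers, r was 0.890 for P2rx1, 0.874 for Chrm3, 0.857 for Chrm2, 0.691 for P2rx4 and -0.721 for Adra1a. Those markers summed to between 5149 and 13154 CPM in BB and between 25579 and 26763 CPM in UB, without overlap, and 6 of 14 were called lower (median -1.01), as were 3 of 7 fibroblast markers. Skeletal muscle markers summed to between 11.96 and 127 CPM in BB and between 218 and 266 CPM in UB, and 1 of 5 was called lower. All 4 squamous keratins (median 8.60) and 3 of 5 neutrophil markers (median 4.46) were called higher in BB, the keratins summing to 211 to 15509 CPM against 13.7 to 25.4 CPM in UB. The neutrophil count was 2 without UB 1 or UB 2, and 5 without BB 5, BB 7, BB 8 or BB 10. The part of any of these cell types in the bladder differences was not tested. Scaled to the smooth muscle markers, with a median of all genes of 1.67, neither P2rx1 (-0.74) nor Chrm3 (-0.48) was called. Over the 24 ureter libraries, r with the muscle markers was 0.739 for P2rx1, 0.602 for Adra1a, 0.564 for Adra1d and -0.418 for P2ry2. With the adipocyte markers it was 0.738 for Adra1a, 0.701 for Adra1d, 0.731 for P2rx1 and -0.804 for P2ry2.

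**Figure D4:**
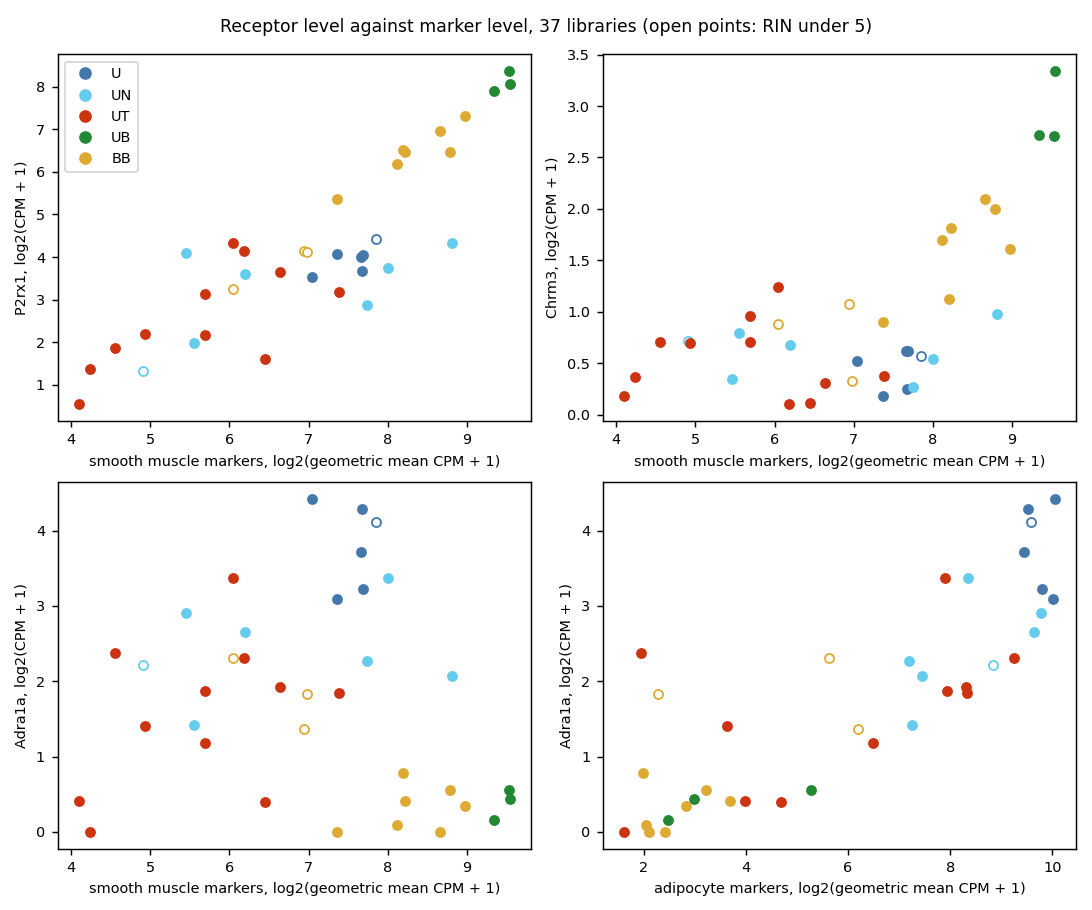
P2rx1, Chrm3 and Adra1a (vertical axes, log2(CPM + 1)) against the geometric mean of the 10 smooth muscle markers, and Adra1a against that of the 7 adipocyte markers (horizontal axes, log2 scale), for 37 libraries colored by group, open points having RIN under 5. In the bladder P2rx1 follows the muscle markers almost along a line (r = 0.986 over 13 libraries), and Adra1a is high in the ureters that are high in adipocyte markers (r = 0.738 over 24 libraries).

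Whether BBN acted differently on the receptors in the ureter and the bladder was tested as an interaction, the change in UN against U minus that in BB against UB. Calls were made for 0 of the 8 members in edgeR, beside 1.51% (higher) and 0.548% (lower) of the 18786 genes tested. Chrm3 and Adra1a were the 2 members with an unadjusted p under 0.05, as were 2245 genes in all. Chrm3 came nearest, with a difference of 2.21 (SE 0.71, adjusted p = 0.144), on levels in UN and U of at most 0.964 CPM. It was called in DESeq2 (2.05, adjusted p = 0.0509), with RIN as a covariate (2.17, adjusted p = 0.0814) and without the bladders of RIN under 5 (2.02, adjusted p = 0.0787). Adra1a differed by -3.69 (SE 1.44, adjusted p = 0.283) and was called in DESeq2 (-4.25, adjusted p = 0.0618), but its difference was -1.45 (adjusted p = 0.568) without those bladders. P2ry2 differed by 0.87 (SE 0.73, adjusted p = 0.667). All UN and U mice also gave a bladder, which this fit ignores. Blocking on the mouse in edgeR, or giving it a random term in limma-voom, again called 0 members (Chrm3 2.32, adjusted p = 0.182, and 2.104, adjusted p = 0.104).

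The other 24 receptors of the muscarinic, purinergic, adrenergic and tachykinin families give the setting. Of the 17 tested in U against UB, 5 were called higher and 2 lower, with a median of -0.03. The largest differences were those of Adrb3, the beta-3 receptor of fat (6.502), P2ry14, a receptor for UDP-sugars (3.25), and P2rx5, an ATP-gated channel (2.95). Without UB 2, Adrb3 differed by 7.40. Adrb3 had 586 ± 65.4 CPM in U (SD, n = 6) and 8.47 ± 6.80 CPM in UB (SD, n = 3). P2rx2 and Tacr1 were called lower in U, like P2rx1. No muscarinic receptor other than Chrm2 and Chrm3 passed the filter in the untreated tissues, Chrm1 reaching at most 1.32 CPM there.

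In UT against U, 8 of 17 were called higher and 4 lower (median 1.15), and in UN against U 6 were higher and 0 lower (median 0.70). The count called lower in UT was 2 without any 1 of UT 1, 3, 5R, 5L or 10 or of U 1R, 2L or 3R, and that in UN was 1 without UN 9. P2ry10 (3.35 in UT, 3.13 in UN) and Tacr1, the substance P receptor (2.99 and 2.82), led in both, with Adra2a (3.22 and 2.087). P2ry10 was 2.34 in UN without UN 3, Tacr1 2.16 in UN without UN 7, and Adra2a 2.63 in UT without UT 1. With the ureters of a mouse summed, 6 were higher and 1 lower in UT, and 0 of either in UN. P2ry6, a UDP receptor of macrophages, was higher by 2.49 and 2.03. Adrb3 (-3.55, or -4.83 without UT 9) and P2rx6 (-1.66), both higher in U than in UB, were called lower in UT. In UT against UN, 0 of 17 were called in edgeR, and 2 had an unadjusted p under 0.05 (2 were called lower without UT 9 and 1 without UN 3). In BB against UB, 2 of 21 were higher, Adrb1 (2.90) and P2ry14 (1.97), and 1 was lower, Adra2c (-3.21). Without the bladders of RIN under 5, 6 were called higher and 3 lower. Leaving out single libraries gave 5 higher without BB 1, 4 without BB 4 or BB 10 and 1 without UB 1 or UB 3, and 2 lower without BB 3. The Adra2c call ended without any 1 of the UB libraries or BB 8 (adjusted p = 0.104 to 0.268), and that of P2ry14 without UB 1 or UB 3 (adjusted p = 0.150 and 0.103). Of the macrophage markers, 5 of 8 were called higher in UT against U and 5 of 8 in UN against U, or 2 and 0 with the ureters of a mouse summed. Their part in the P2Y receptors was not tested. Scaled to smooth muscle, which shifts the medians of all genes to 2.69 and 1.67, the medians of these receptors were 3.55 in UT against U and 2.33 in BB against UB.

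Genes that make, release or break down the transmitters were read in the same way. Of 22, 14 were tested in U against UB, with 4 called higher and 3 lower. Mme, a peptidase that degrades tachykinins (6.80), Bche, which hydrolyzes choline esters (4.64), and Maob, a monoamine oxidase (4.11), were higher in U (Mme by 7.96 without UB 2). Entpd3 (-2.89), Alpl (-1.94) and Panx1 (-1.91), which degrade or release ATP, were lower. In UT against U, Slc17a9, the vesicular nucleotide transporter, rose by 2.74, the noradrenaline transporter Slc6a2 by 2.49 and Panx1 by 1.80, while Bche (-2.73), Maob (-2.61) and Mme (-2.34) fell, 3 being called higher and 4 lower of 15 tested. In UN against U, 3 were called higher, Slc6a2 (2.55), Slc17a9 (1.90) and Panx1 (1.17), and 0 lower. The Panx1 call ended without UN 3 (0.95), and all 3 with the ureters of a mouse summed. In BB against UB, Slc6a2 (3.85, or 2.87 without the bladders of RIN under 5) and Slc17a9 (2.38) were called higher, but Slc6a2 not without any 1 of the UB libraries (adjusted p = 0.196 to 0.205) and Slc17a9 not without UB 1 or UB 2 (adjusted p = 0.125 and 0.144), and 3 were lower, Alpl (more so, at -3.74, without BB 2), Entpd3 (-2.68) and Entpd2 (-1.23), of 18 tested. In UT against UN, 0 of 15 were called in edgeR, and 5 had an unadjusted p under 0.05, but up to 1 was called higher and 2 lower without UN 1, 3, 4 or 7 or UT 7 or 9. Of the neuron and Schwann cell markers tested, 1 was called higher and 4 lower of 8 in UT against U, but 1 or 2 lower without any 1 of the U libraries or of UT 2, 4, 5R, 5L or 10, and 2 higher without U 3R. In BB against UB, 0 of 10 were called in edgeR, and 3 had an unadjusted p under 0.05 (1 was called higher without BB 10). Scaled to smooth muscle, the median of the transmitter genes in UT against U went from -0.24 to 2.396, beside 2.69 for all genes.

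Downstream of the receptors, 12 of 36 G protein and calcium signaling genes were called lower and 3 higher in UT against U (median -0.35), among them Ppp1r12a, a subunit of myosin phosphatase (-2.71) and the calcium release channel Ryr3 (-2.26). In UT against UN, 7 of 36 were called lower, a count that was 0 without UT 2, 5R, 5L or 10 or UN 2 or 6, 4 without UN 1 or 4, and 11 without UN 3 or UT 9. Of these, Ryr2 (-2.33) and Ryr3 (-1.81) were -0.75 and -1.09 without UN 6, which has RIN under 5, and Ppp1r12a (-1.52) was -0.63 without UN 1, none of them then called. In UN against U, Rgs16 (1.90) and Ryr2 (2.096) were called higher and 1 gene lower (4 lower without UN 1, 2 without UN 9, and 0 without UN 3, UN 7, U 1R, U 2L or U 3L), but Ryr2 was 0.48 without UN 6 (adjusted p = 0.602), its call also ending without any 1 U library other than U 3L (adjusted p = 0.109 to 0.170), and none of these genes was called with the ureters of a mouse summed. In BB against UB, 6 of 37 were lower, with Rgs4 (-2.52), Itpr1, the IP3 receptor on the Gq path (-2.01), and Plcb4 (-1.91) leading, and 3 were lower without any 1 of the UB libraries. In U against UB, 5 were higher and 5 lower, among them Plcb1 (3.003) and Gnai1 (2.60). Scaled to smooth muscle, the medians of these genes were 2.091 in UT against U and 0.94 in UT against UN, below the medians of all genes of 2.69 and 1.29.

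Other receptors that contract the urinary tract or its vessels were read next. Of 11 tested in U against UB, 7 were called higher in U and 1 lower, Bdkrb2 (-1.68), the largest being Ptger3 (5.52), Oxtr (5.05, or 5.86 without UB 2) and Agtr1a (4.00). In UT against U, 6 of 12 were lower (3 to 6 when 1 library was left out, and 2 with the ureters of a mouse summed) and 1 was higher, with Avpr1a, the V1a vasopressin receptor (-3.25), Oxtr (-3.16, or -4.48 without UT 9) and Htr2b (2.95) the largest. Avpr1a was also called lower in BB against UB (-3.49) and in UN against U (-1.71, or -2.49 without UN 1). In UT against UN it was called (-1.54), but was -0.76 without UN 1 (adjusted p = 0.254). Htr2b was called higher in UN against U (3.69, or 3.01 without UN 2). Neither call in UN against U held with the ureters of a mouse summed (adjusted p = 0.234 and 0.128). Scaled to smooth muscle, the median of these receptors in UT against U went from -0.81 to 1.60, below that of all genes, 2.69. Of the 4 adenosine receptors, 3 were called higher in U than in UB, led by Adora1 (2.05) and Adora2a (1.86). Adora1 was called lower in UT against U (-2.17), though not with the ureters of a mouse summed (adjusted p = 0.106), and in BB against UB (-2.82, or -3.79 without the bladders of RIN under 5), though not without UB 1 or UB 3 (adjusted p = 0.101 and 0.125). Adora2b (1.60) was called higher in UT against U.

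The genes whose log2(CPM + 1) was most like each member's over the 37 libraries were named from 15313 genes as a description, since the libraries share tissues, depth and treatment. For Chrm2 they included Chrm3 (Pearson's r = 0.884) and Kcnf1 (0.874), and for Chrm3 they were Chrm2, Kcnf1 (0.881) and Tbx20 (0.849). P2rx1 was most like Actc1 (0.914), Des (0.910) and Synm (0.880), genes of the muscle cytoskeleton. Among the genes most like Tacr2 were Tbx20 (0.769) and Chodl (0.766). Adra1a was most like Acsm5 (0.932), Tshr (0.916) and Aqp7 (0.912), the last a glycerol channel of fat. Adra1d was most like St6galnac5 (0.902), 4732471J01Rik (0.871) and Acss3 (0.869). P2ry2 was most like Kctd5 (0.957), Spats2 (0.956) and Ipmk (0.954), and P2rx4 like Mif4gd (0.900), Sdf4 (0.885) and Fra10ac1 (0.885). Among the members, Adra1a and Adra1d had r = 0.813, Chrm2 and P2rx1 0.821, and P2ry2 and Adra1a -0.728.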

How the data were processed

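Total RNA of each tissue had been extracted with a column kit, and libraries were made from full-length cDNA without strand marking and sequenced by the authors. Per the submitters' processing notes, TopHat2 2.1.1, Cuffdiff 2.2.1 and the GRCm38/mm10 genome were used. The program that counted reads per gene is not given in the sources used here. The authors deposited a table of 24421 gene symbols that holds estimated counts without normalization (21.1% of the nonzero values are fractional), and the 37 columns were matched to samples by name. Reads of overlapping genes cannot be told apart without strand.

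Counts were rounded and put to the quasi-likelihood test of edgeR 4.0.16 (R 4.3.3) with TMM factors and filterByExpr. The thresholds of the study were used, an adjusted p under 0.1 and at least 2-fold. U, UN and UT were fitted together, the bladders and the untreated tissues each on their own. DESeq2 1.42.0 and limma 3.58.1 served as alternatives, with other filters, scalings, covariates and left-out libraries. The procedure was tested on simulated counts. Both ureters of a mouse entered as separate libraries, so p-values treat them as independent. CPM, per-kilobase levels (GENCODE vM21 exons), correlations and figures were computed in Python. Same-numbered UT and UN libraries were taken as from the same mouse, as were U and UB. The median correlation of their deviations was -0.038 over 7 UT and UN pairs, beside -0.022 over 42 pairs of different mice. For U and UB it was -0.048 over 3 pairs, beside 0.040 over 6. Same-numbered libraries were thus no more alike than others. No libraries of a group were copies by a chi-square comparison. The members and gene lists were chosen with earlier results of these data known. All members were named in every comparison, with up to 3 called genes of the largest change from each list and the 3 genes most like each member, by Pearson's r among genes of at least 1 CPM in 10 libraries. Further genes named from the lists were chosen after their values were seen. Some genes that this rule names are not reported here.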

Additional observations from a re-analysis of the deposited data

Results flagged for a closer look

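Among the groups of 6 to 10 libraries, the level of Tacr2 in UN 1 stood apart from the other 6 libraries of its group, at 0.78 on the log2(CPM + 1) scale, or 9 counts and 0.723 CPM, where the next UN library had 0.134 CPM. It was 1 such group among 24 compared, and chance sets a library apart in about 1 of 20. UN 1 also had the highest smooth muscle marker sum of the BBN-treated ureters, 7816 CPM, and the part of muscle content was not tested.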

How the results depend on the processing

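In untreated ureter against untreated bladder, the count of 6 members called was 6 or 7 under every setting run. In UT against UN, the 1 call (P2ry2) became 0 with limma-trend, with only the 2 groups in the fit, with RIN as a covariate, with the mouse as a replicate block or as a random effect, and without UN 6 and UT 9, and leaving out 1 library gave 0 to 1. In UT against U, 4 calls became 2 with smooth muscle scaling, 2 with the ureters of a mouse summed, and 3 without a filter on low counts or with RIN as a covariate. In UN against U, 1 call became 2 with DESeq2, 2 with smooth muscle scaling and 2 with only the 2 groups, and 0 with the ureters of a mouse summed. In BB against UB, 2 members called lower became 2 called higher with smooth muscle scaling, and the 2 calls became 4 without the BBN bladders of RIN under 5 and that of mouse 6 (added after seeing the data), and leaving out 1 library gave 0 to 3. In the interaction, 0 calls became 2 with DESeq2, 1 with RIN as a covariate, 1 without the bladders of RIN under 5, and 1 without these, UN 6 and the bladder of mouse 6.

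Directions turned with smooth muscle scaling for P2rx1 (0.11) and P2rx4 (0.63) in UT against UN, P2rx1 (0.58) and Adra1d (0.12) in UT against U, P2rx1 (0.47) and Adra1d (0.38) in UN against U, and P2rx4 (1.17) and Tacr2 (1.23) in BB against UB. That scaling shifts all genes up, by construction, where muscle markers are low. P2rx4 and Tacr2 in BB against UB, both close to 0, also turned with RIN as a covariate (0.046 and 0.0026) and without the bladders of RIN under 5 and of mouse 6 (0.042 and 0.040), and without the first of these with muscle scaling (1.18 and 1.14). P2rx4 was 0.11 without the bladders of RIN under 5. Tacr2 was 0.012 without BB 1, and leaving out an untreated bladder gave -0.64 to 0.34. Adra1d in the interaction was 0.23 without the bladders of RIN under 5 and 0.46 without UN 6 and the bladder of mouse 6 as well. The cause was not tested.

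Over all genes, UT against UN gave 206 higher and 658 lower, but 0 and 0 with RIN as a covariate or only the 2 groups, 1 and 0 with the mouse block, 2 and 0 with the random term, 46 and 9 in limma-trend, 411 and 980 in DESeq2, and from 4 and 1 (without UT 5L) to 614 and 1240 (without UN 7) or 438 and 1245 (without UT 9) when 1 library was left out. UN against U gave 1950 and 189, but 147 and 10 with the ureters of a mouse summed and 751 and 550 with the random term. It gave 1193 and 448 in limma-trend, 1563 and 378 with only the 2 groups, 2260 and 422 without UN 9, and 1508 and 97 without UN 3. The interaction gave 284 and 103, but 454 and 472 in DESeq2, 496 and 222 with RIN as a covariate, 441 and 216 with the mouse block (added after seeing the data, like the random effect for the interaction), and 10 and 5 with muscle scaling. BB against UB gave 1373 and 1036, but 4646 and 1153 in DESeq2, 4171 and 1499 with library code range added to the model, and 528 and 496, 541 and 534, or 532 and 507 without UB 1, UB 2 or UB 3. With muscle scaling the counts were 9024 and 294 in UT against UN, 8630 and 25 in UN against U, and 10607 and 162 in BB against UB. In UT against U they were 13979 and 122, and in U against UB 11567 and 362. The mouse as a block changed no other call among the members. Depth limits Chrm2, Chrm3 and Tacr2 in the ureter. For the gene lists beside the members, the counts and values without single libraries, without the bladders of RIN under 5 and with ureters summed were added after seeing the data.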
